A study of Homo sapiens with 9 samples.

Results

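Described here are 79 genes for homeobox and PAX transcription factors outside the HOX clusters, followed over 6 days of exposure of an oesophageal carcinoma cell line to an EZH2 inhibitor. They were chosen by symbol, from rows of the deposited table that belong to the sine oculis family (SIX2, SIX3 and relatives) or whose name is PAX, DLX, LHX, MSX, OTX, IRX, EMX, TLX, BARX, GSX, MEOX, MNX, PITX, ALX, VAX, GBX, CDX or EN with a number, LMX1A, LMX1B, or NKX with a pair of numbers. They make up 79 of the 35762 symbols in the table. RNA was sequenced in 9 libraries of TYUC-1, labelled as a neuroendocrine oesophageal carcinoma line grown in suspension, with 3 numbered replicates each on day 0, day 3 and day 6 of EPZ-6438. EPZ-6438 (tazemetostat) blocks EZH2, the methyltransferase of PRC2 (Polycomb repressive complex 2), and the protocol text names 2 uM of it or DMSO. EPZ-6438 is the labelled treatment of every library, the labels do not say whether day 0 cells had DMSO, and no vehicle-treated library from the later days was analysed here. Exposure and days in culture therefore cannot be told apart. All libraries come from 1 cell line, and the labels do not say that replicates came from separate cultures, so p-values measure the spread between these libraries. Means are given ± SD over the 3 libraries of a day.

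Homeodomain proteins bind short AT-rich DNA sites through a helix-turn-helix fold, and PAX proteins carry a paired domain, in some members together with a homeodomain. In embryos they mark positions and lineages: OTX, EMX and SIX3 the anterior head, EN and GBX the midbrain and hindbrain, DLX and MSX the pharyngeal arches and ectoderm, and NKX2-1 the ventral foregut that forms trachea and lung. In the oesophagus PAX9 belongs to the squamous epithelium of mouse and human. Genes of this kind are textbook targets of PRC2, which methylates lysine 27 of histone H3 over CpG-rich promoters of silent developmental genes.

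The sequences of 5 promoters show the CpG content at genes on which the results turn, 3 that were near silent on day 0 and rose and 2 that were lower on day 6. Each window runs from 250 bases before to 50 bases after the gene start in RefSeq (build GRCh38.p14), is written 5′ to 3′ on the strand of the gene, and has every CG dinucleotide in capitals. PAX7 lies at chr1:18630596-18630895 on the plus strand, TLX1 at chr10:101131050-101131349 on the plus strand and NKX3-2 at chr4:13544459-13544758 on the minus strand. OTX1 lies at chr2:63050580-63050879 on the plus strand and SIX2 at chr2:45009403-45009702 on the minus strand.
PAX7: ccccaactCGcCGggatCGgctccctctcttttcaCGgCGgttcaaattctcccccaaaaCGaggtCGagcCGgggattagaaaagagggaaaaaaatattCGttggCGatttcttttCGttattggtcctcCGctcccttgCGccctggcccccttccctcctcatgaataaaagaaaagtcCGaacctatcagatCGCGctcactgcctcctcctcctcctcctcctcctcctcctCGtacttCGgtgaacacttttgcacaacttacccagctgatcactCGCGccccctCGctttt
TLX1: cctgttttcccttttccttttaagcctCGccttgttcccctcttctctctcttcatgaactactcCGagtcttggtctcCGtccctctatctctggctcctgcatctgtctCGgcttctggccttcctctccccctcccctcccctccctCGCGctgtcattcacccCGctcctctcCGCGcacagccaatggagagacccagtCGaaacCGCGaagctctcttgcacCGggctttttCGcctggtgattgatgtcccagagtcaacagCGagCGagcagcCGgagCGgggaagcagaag
NKX3-2: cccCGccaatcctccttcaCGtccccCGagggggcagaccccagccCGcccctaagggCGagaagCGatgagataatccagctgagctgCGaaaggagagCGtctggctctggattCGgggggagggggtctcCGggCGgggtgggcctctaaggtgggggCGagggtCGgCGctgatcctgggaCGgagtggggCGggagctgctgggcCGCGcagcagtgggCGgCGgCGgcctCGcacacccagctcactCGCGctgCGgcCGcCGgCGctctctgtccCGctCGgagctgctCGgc
OTX1: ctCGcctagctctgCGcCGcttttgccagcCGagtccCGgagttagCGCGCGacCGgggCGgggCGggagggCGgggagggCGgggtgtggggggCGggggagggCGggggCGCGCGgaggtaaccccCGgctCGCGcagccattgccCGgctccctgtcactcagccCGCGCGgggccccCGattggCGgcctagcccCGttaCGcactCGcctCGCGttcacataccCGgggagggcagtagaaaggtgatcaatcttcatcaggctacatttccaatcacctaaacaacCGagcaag
SIX2: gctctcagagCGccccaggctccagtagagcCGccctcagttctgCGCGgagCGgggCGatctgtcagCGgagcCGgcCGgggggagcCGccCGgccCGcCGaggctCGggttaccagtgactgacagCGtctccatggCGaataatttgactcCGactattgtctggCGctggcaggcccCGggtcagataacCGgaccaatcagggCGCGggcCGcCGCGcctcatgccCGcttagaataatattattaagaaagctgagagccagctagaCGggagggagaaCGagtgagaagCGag
They hold 21 (PAX7), 18 (TLX1), 31 (NKX3-2), 34 (OTX1) and 29 (SIX2) CG dinucleotides, against a median of 14 over all 35116 RefSeq windows of the same 300 bases. Of those windows 39.5% hold as many as PAX7 or more, 44.5% as many as TLX1, 20.7% as many as NKX3-2, 15.6% as many as OTX1 and 24.2% as many as SIX2. Windows were matched for 53 of the 79 genes, too few for a comparison over the family.

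The 9 libraries held between 21638874 and 31235055 estimated counts. Levels are in CPM (counts per 1000000 counts of the library after TMM scaling, a correction for the makeup of each library), and 3 counts, the limit that a count of 0 allows, correspond to 0.0979 to 0.141 CPM. Such limits and the intervals below cover counting error only. Libraries are named by day and number. D0_2, replicate 2 of day 0, stood apart from the other day 0 libraries, with a mean correlation of 0.981 to them on the log scale over 13335 genes, against 0.987 for both D0_1 and D0_3. Its chi-square per degree of freedom against them was 55.4 (D0_1) and 47.6 (D0_3), where D0_1 and D0_3 gave 4.94. Counts of calls are therefore also given without it. Of 10 neuroendocrine markers 8 were counted well enough to test, among them ENO2 at 371 ± 23.8 CPM on day 0 (mean ± SD, n = 3), while the granule genes SCG2 and SCG3 were at 0.383 ± 0.222 and 0.204 ± 0.0367 CPM. The basal keratin KRT14 had 1, 0 and 2 counts over the libraries of day 0, day 3 and day 6.

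Before exposure the line already carried transcripts of many of these genes. Of the 79, 53 were counted well enough to be tested, 20 had counts but too few, and 6 (CDX1, CDX4, GSX1, NKX2-4, NKX2-6 and NKX6-2) were at 0 in all libraries. Summed over the 79 genes, libraries held 1079 to 1207 CPM on day 0, 1233 to 1262 CPM on day 3 and 1113 to 1181 CPM on day 6. Between 53 and 54 of them had a count in a day 0 library, 61 to 66 in a day 3 library and 66 to 68 in a day 6 library. Per kilobase of merged exon, OTX2 stood highest on day 0 at 133 CPM per kb, followed by SIX2 (43.4), PITX1 (31.1), SIX3 (27.6), EMX2 (15.3), IRX6 (14.1), BARX2 (11.8) and OTX1 (9.43). These per-length levels use GENCODE release 29 exons, since the transcripts the authors counted are not given.

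**Figure D1:**
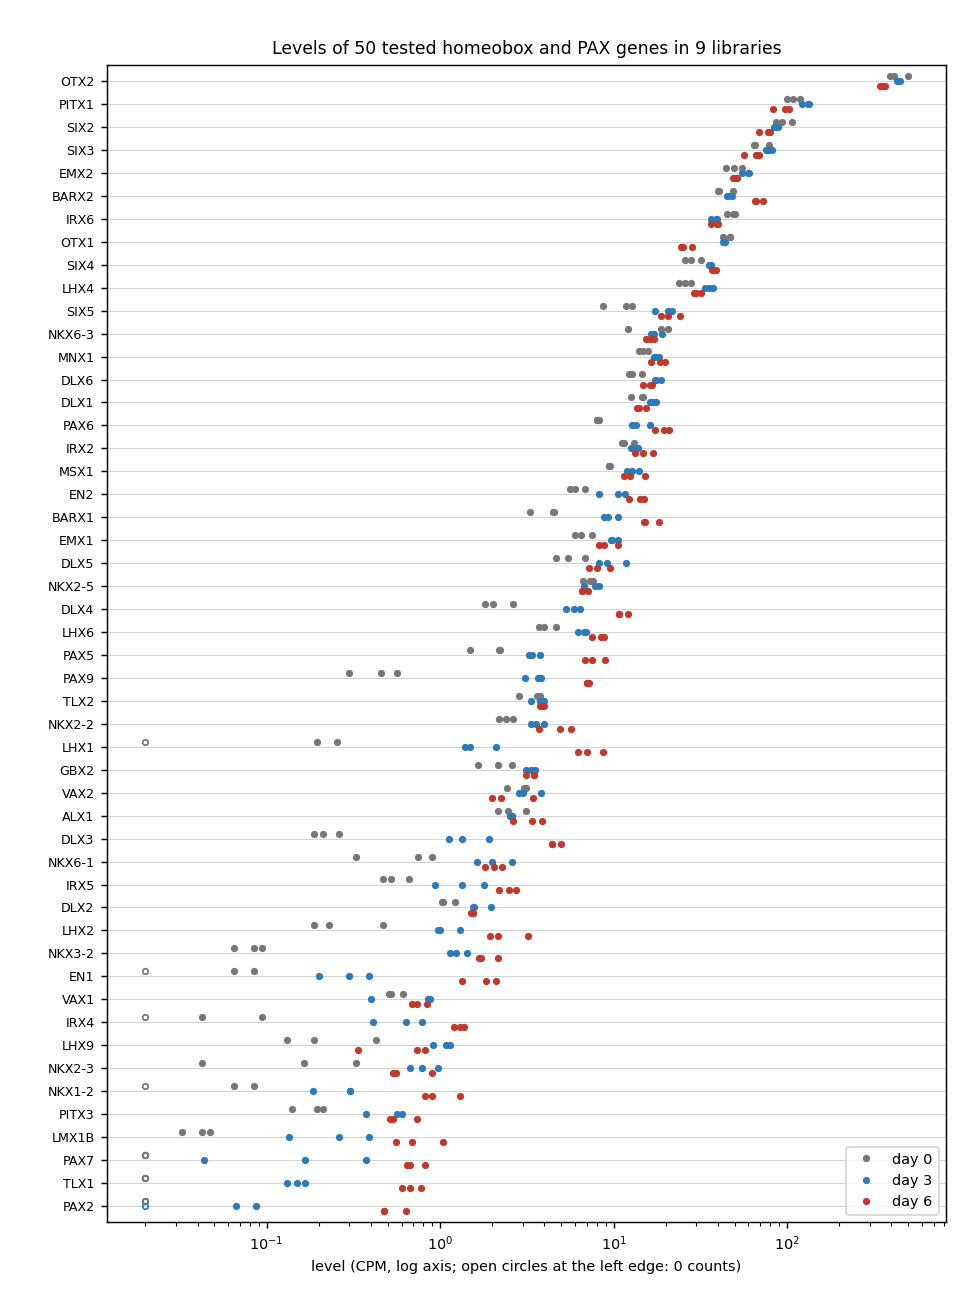
Level in CPM (log axis) of 50 of the 53 tested genes, one row each, ordered by their mean over 9 libraries, with 1 point per library coloured by day and open circles at the left edge for a count of 0. PAX2, TLX1 and PAX7 in the lowest rows have open circles for all day 0 libraries, while OTX1 and OTX2 near the top have their day 6 points furthest left.

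Transcripts of the tested genes were called higher far more often than lower. Changes given with a standard error (SE) are log2 fold changes, later day over earlier day, and an alternative is the same test with 1 choice changed. On day 3 against day 0, 36 of the 53 tested genes were higher and 1 was lower, where 22.5% of all 15345 genes tested were higher and 18.2% lower (edgeR quasi-likelihood test, adjusted p under 0.05). Day 6 against day 0 gave 37 higher and 4 lower, against 28.9% and 25.7% of all genes. On day 6 against day 3 20 were higher and 3 lower, against 11.7% and 4.71% of all genes. The median log2 fold change of the tested genes was 0.70, 0.93 and 0.11 in the 3 comparisons, and that of all genes 0.01, 0.01 and -0.00. With PAX2, PAX7 and TLX1, which had no day 0 count, set to their lower bounds, the first 2 medians were 0.63 and 0.93. Without D0_2, 54 of the genes were tested. Of these 36 were higher and 1 lower on day 3 against day 0, against 25.5% and 21.7% of all genes. For day 6 against day 0 the numbers were 38 and 6, against 31.8% and 29.3% of all genes. On day 6 against day 3, 21 were higher (38.9%) and 8 lower (14.8%), against 17% and 13.9% of all genes, so that the share lower was near that of all genes. The filter on low counts keeps a gene with few or no day 0 reads when later days have enough. Besides PAX2, PAX7 and TLX1 this holds for DLX3, EN1, IRX4, LHX1, LHX2, LHX9, LMX1B, NKX1-2, NKX2-3, NKX3-2, NKX6-1, PAX9 and PITX3. All of them were called higher on day 6 against day 0, and the filter favours such calls. The counts therefore describe the tested genes and not all 79.

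Counting from silence avoids that filter. Of the 79 genes 20 had no count in any day 0 library, and 13 of these (65%) had a count on day 6 and 7 (35%) had at least 10. Among all protein-coding symbols with no day 0 count the shares were 38.2% and 10.2%, and among all symbols 15.3% and 2.35%. In the other direction MEOX2, a somite homeobox gene, was the only 1 of the 79 with counts on day 0 and none on day 6 (10, 9 and 0 counts over the libraries of day 0, day 3 and day 6). The same held for 210 of 19380 protein-coding symbols, of which 2954 had no day 0 count. Among all 35762 symbols it held for 993, where 15122 had no day 0 count. With only 1 such gene among the 79, no difference in losses can be read. These shares and counts were set side by side without a test.

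**Figure D2:**
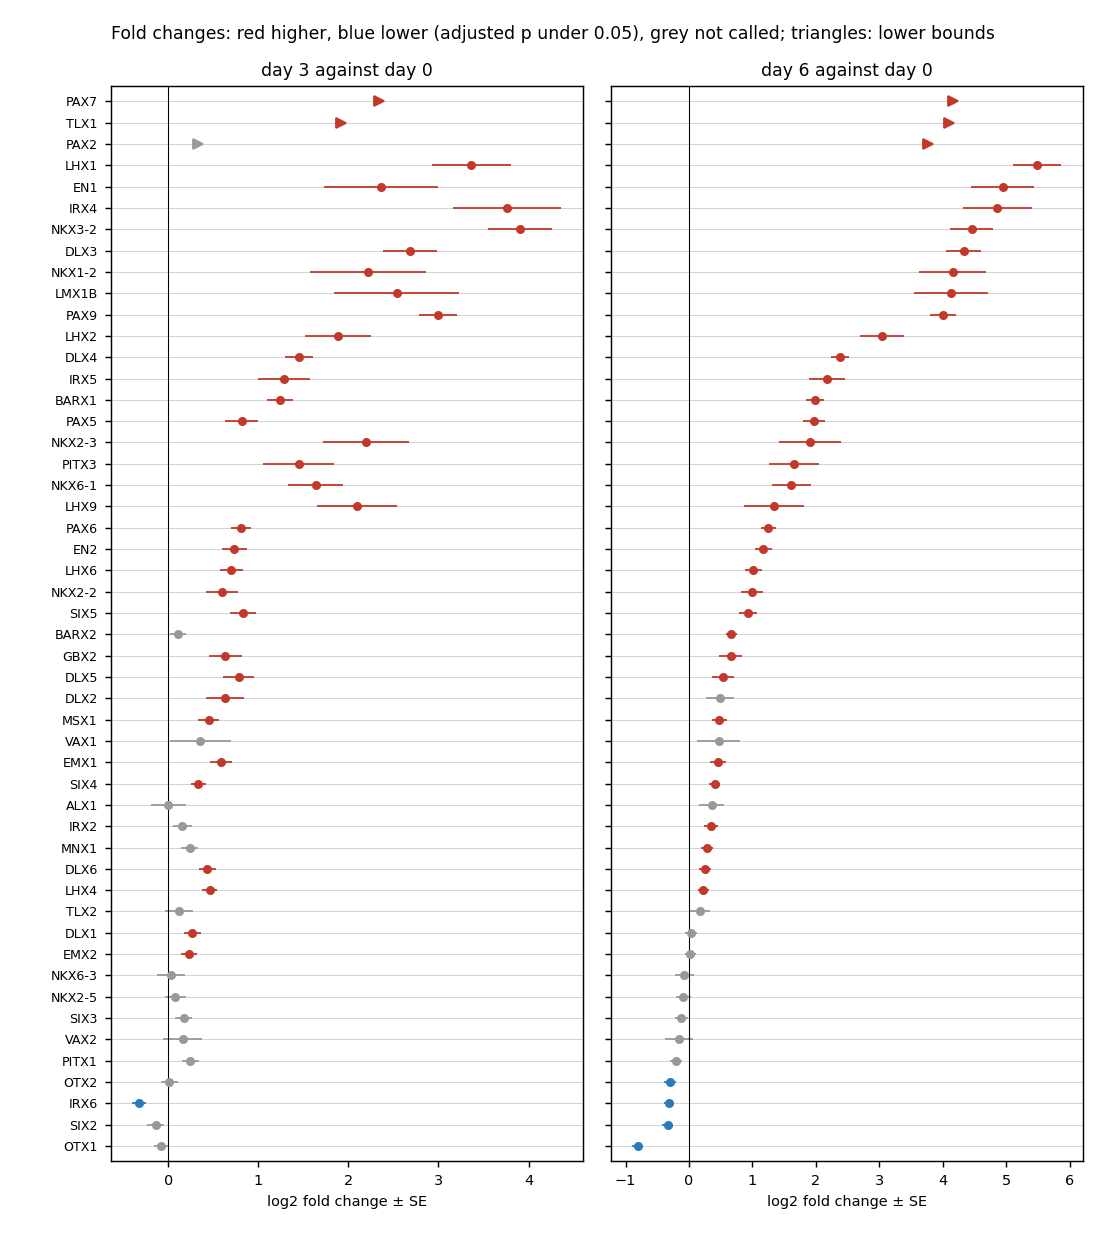
Log2 fold change with its standard error for day 3 against day 0 (left) and day 6 against day 0 (right) of 50 of the 53 tested genes, ordered by the right panel; red marks higher and blue lower at an adjusted p under 0.05, grey marks genes not called, and triangles are lower bounds for genes with no day 0 count. Both panels use the same day 0 libraries. The 4 blue points on the right are OTX1, SIX2, IRX6 and OTX2, and the blue point on the left is IRX6.

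Among the PAX genes 5 of 9 were tested, and all 5 were higher on day 6 than on day 0 and than on day 3. Of all genes tested 28.9% and 11.7% were higher in these comparisons. PAX2, PAX7 and PAX9 would not have passed the filter on low counts on their day 0 libraries alone. That all 5 were higher is therefore no support for a rise of the family. PAX9 (chromosome 14, 36657568 to 36679715, plus strand) had 0.457, 0.298 and 0.564 CPM on day 0, 3.65, 3.81 and 3.09 CPM on day 3 and 6.99, 7.19 and 7.02 CPM on day 6. Its groups were separate at each step and it stood 8.11-fold (95% interval 5.65 to 12.02) higher on day 3 and 16.1-fold (95% interval 11.4 to 23.7) higher on day 6 than on day 0 in pooled counts. The step after day 3 had a log2 fold change of 1.00 (SE 0.15, adjusted p = 0.000438). PAX6, a regulator of eye, brain and pancreatic islet development, had 8.26, 8.03 and 8.04 CPM on day 0, 16.2, 13.4 and 12.9 CPM on day 3 and 20.98, 19.5 and 17.4 CPM on day 6. Every later library lay above every earlier one, with a log2 fold change of 1.25 (SE 0.11, adjusted p = 8.4e-07) on day 6 against day 0. Its call between day 3 and day 6 was lost without D3_2, D3_3 or D6_1 (up to 0.069). PAX5, the B-cell commitment factor, had 2.19, 1.49 and 2.21 CPM on day 0, 3.76, 3.38 and 3.26 CPM on day 3 and 6.82, 7.5 and 8.91 CPM on day 6. It too stepped up at both times, by 0.82 (SE 0.18, adjusted p = 0.00317) on day 3 and 1.97 (SE 0.17, adjusted p = 7.39e-07) on day 6 against day 0.

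PAX7, a factor of muscle stem cells and neural crest, and PAX2, a factor of kidney and hindbrain, had no count on day 0. PAX7 had 10, 5 and 1 counts in the day 3 libraries and 20, 15 and 19 in the day 6 libraries, which makes it at least 5.05-fold higher on day 3 and at least 17.8-fold higher on day 6, against a floor of 3 counts over the day 0 group. Of its 16 day 3 counts 10 came from D3_1, and without that library it was at least 2.85-fold higher on day 3 than on day 0, and its log2 step between day 3 and day 6 was 2.61 in place of 1.81. The call of that step was lost in 7 alternatives (up to 0.133), among them without D3_2, D3_3 or any library of day 6. PAX2 had 0, 2 and 2 counts on day 3, where it did not pass (adjusted p = 0.0839, and 0.0456 without D3_1), and 19, 11 and 11 on day 6, at least 13.5-fold higher than on day 0 (adjusted p = 0.000151). The other 4 PAX genes were not tested. PAX3 had 12 counts on day 0, 25 on day 3 and 22 on day 6. PAX1 had 1 count on day 0, 3 on day 3 and 5 on day 6. PAX4 had 1 count on day 0, 3 on day 3 and 1 on day 6, and PAX8 had 3 counts on day 0, 5 on day 3 and 1 on day 6.

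All 6 DLX genes were tested, and all 6 were higher on day 3 than on day 0, where 22.5% of all genes tested were higher. DLX3 would not have passed the filter on low counts on its day 0 libraries alone. The human DLX genes lie in convergent pairs, and are described pair by pair. DLX3, needed for skin, hair and tooth formation, spans 49990005 to 49995224 on chromosome 17 (minus strand) beside DLX4, best known from placenta, at 49968970 to 49974959 (plus strand). DLX3 had 0.261, 0.213 and 0.188 CPM on day 0, 1.34, 1.91 and 1.13 CPM on day 3 and 4.4, 4.44 and 4.95 CPM on day 6. DLX4 had 2.02, 1.83 and 2.63 CPM on day 0, 5.33, 5.89 and 6.43 CPM on day 3 and 12.1, 10.7 and 10.7 CPM on day 6. For both, every later library was above every earlier one, and pooled counts of DLX3 were 20.3-fold (95% interval 12.5 to 35.3) those of day 0 on day 6, while DLX4 changed by 2.38 (SE 0.15, adjusted p = 2.33e-08) on the log2 scale. Both also rose between day 3 and day 6, by 1.64 (SE 0.21, adjusted p = 8.94e-05) for DLX3 and 0.93 (SE 0.13, adjusted p = 0.000233) for DLX4.

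The other pairs, DLX1 with DLX2 on chromosome 2 and DLX5 with DLX6 on chromosome 7, are known for forebrain interneurons and for the jaw. DLX5 had 6.86, 4.63 and 5.45 CPM on day 0, 11.8, 9.2 and 8.3 CPM on day 3 and 7.19, 9.52 and 8.01 CPM on day 6. It was higher on day 3 by 0.78 (SE 0.17, adjusted p = 0.0028) and on day 6 by 0.53 (SE 0.17, adjusted p = 0.0186). DLX6 had 12.8, 14.6 and 12.4 CPM on day 0, 18.7, 17.7 and 17.3 CPM on day 3 and 14.8, 16.6 and 16.1 CPM on day 6. Its log2 fold changes were 0.43 on day 3 and 0.26 on day 6. DLX1 had 14.6, 12.7 and 14.7 CPM on day 0, 16.1, 17.6 and 16.9 CPM on day 3 and 15.5, 13.6 and 13.99 CPM on day 6. DLX2 had 1.04, 1.02 and 1.22 CPM on day 0, 1.97, 1.54 and 1.56 CPM on day 3 and 1.55, 1.51 and 1.55 CPM on day 6. Neither DLX1 nor DLX2 passed on day 6 against day 0 (adjusted p = 0.775 for DLX1 and 0.072 for DLX2). None of these 4 genes passed between day 3 and day 6 (adjusted p = 0.124 to 0.72). The day 3 call of DLX1 was lost in 9 of 18 alternatives (adjusted p up to 0.139), among them without D0_2, D6_1, D6_3 or any library of day 3. That of DLX2 was lost in 7 (up to 0.136), among them without D0_1, D0_2, D3_1 or D3_3. The day 6 call of DLX6 was lost in 10 (up to 0.133), among them without D0_1, D0_3, D6_2, D6_3 or any library of day 3. That of DLX5 was lost without D6_2 or D6_3 (up to 0.0962). DLX2 gained a day 6 call with library size as the only scaling and with a filter at 1 CPM (down to 0.036). DLX1 was called lower on day 6 than on day 3 without D0_2 or with only these 2 days in the fit (down to 0.0326). Antisense transcripts near such genes could not be separated, since the use of strand in the counts is not stated.

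**Figure D3:**
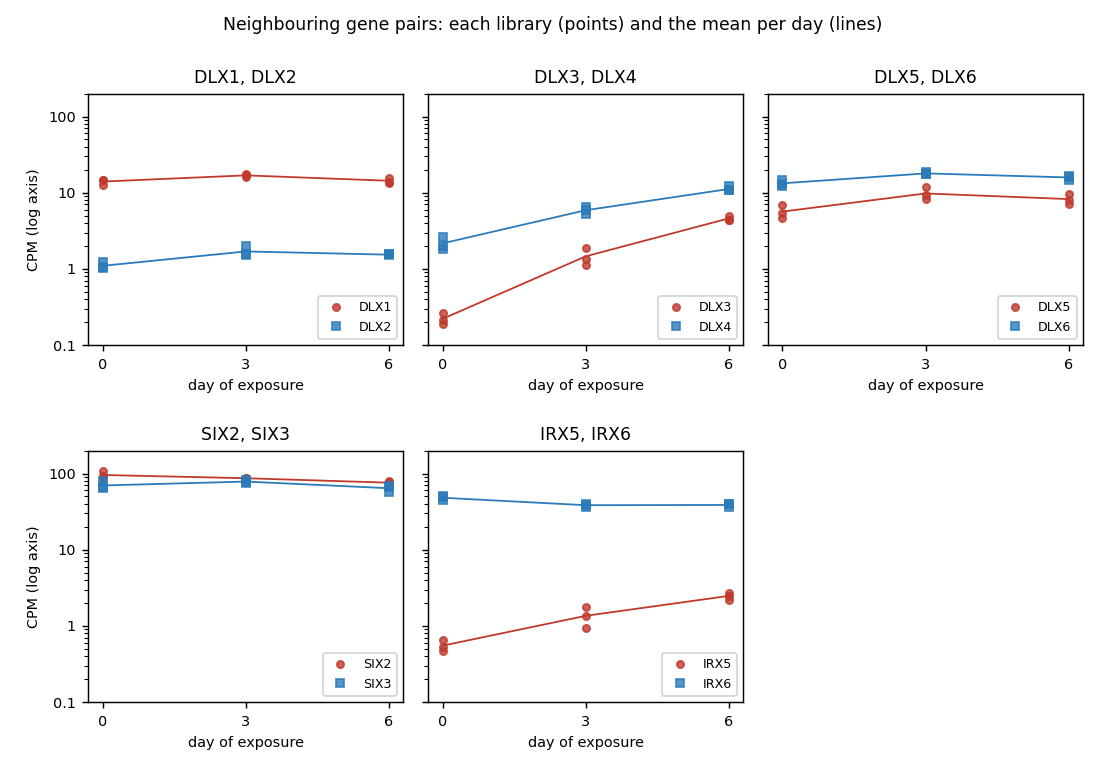
Level in CPM (log axis) by day of 5 pairs of neighbouring genes, with 1 point per library and lines through the means of 3 libraries. DLX3 and DLX4 climb at both steps, DLX1 with DLX2 and DLX5 with DLX6 stay within a narrow band, SIX2 and SIX3 lie close together, and IRX5 climbs while IRX6 dips.

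Proteins of the sine oculis family are partners of the EYA phosphatases in sensory placodes, muscle and kidney. SIX4 (chromosome 14) had 27.8, 31.9 and 25.8 CPM on day 0, 35.8, 35.6 and 36.6 CPM on day 3 and 36.9, 38.7 and 37.8 CPM on day 6. It was higher on both days, with log2 fold changes of 0.34 on day 3 and 0.41 on day 6, while SIX6, within 500 kb, had 0 counts on day 0, 0 on day 3 and 2 on day 6. SIX5, whose gene adjoins the myotonic dystrophy locus, had 12.9, 11.7 and 8.69 CPM on day 0, 20.7, 17.3 and 21.6 CPM on day 3 and 24.3, 20.7 and 18.9 CPM on day 6. It was higher on day 6 by 0.93 (SE 0.14, adjusted p = 0.000113).

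SIX2, a factor of nephron progenitors, and SIX3, a forebrain and eye factor, are neighbours on chromosome 2. SIX2 had 93.4, 107 and 86.3 CPM on day 0, 87.5, 84.5 and 88.2 CPM on day 3 and 79.7, 69.4 and 78.3 CPM on day 6. All day 6 libraries lay below all day 0 libraries, a log2 fold change of -0.34 (SE 0.09, adjusted p = 0.00649), and its day 3 level did not pass in either direction (adjusted p = 0.232 against day 0). SIX3 had 65.8, 78.9 and 64.2 CPM on day 0, 75.6, 77.7 and 81.98 CPM on day 3 and 66.1, 56.9 and 69.3 CPM on day 6. It did not pass on day 3 (adjusted p = 0.183) or day 6 (0.326) against day 0, nor between the later days (0.0617). In 2 alternatives, without D0_2 among them, SIX3 was called higher on day 3 than on day 0 (adjusted p down to 0.00952). In 4, without D0_2 among them, it was called lower on day 6 than on day 3 (down to 0.00333). Without D0_2 or with only these 2 days in the fit, SIX2 was called lower on day 6 than on day 3 (down to 0.0237 over 2).

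OTX1 and OTX2 were lower on day 6 than on day 0 and day 3. OTX2, a master factor of forebrain and retina (chromosome 14), had 393, 496 and 415 CPM on day 0, 430.1, 449.7 and 438 CPM on day 3 and 367, 351 and 343 CPM on day 6. Its day 6 libraries were below all others, with a log2 fold change of -0.30 (SE 0.09, adjusted p = 0.013) against day 0 and -0.31 (SE 0.09, adjusted p = 0.0305) against day 3, and its processed pseudogenes OTX2P1 and OTX2P2 together held 1 count in the 9 libraries. The call against day 0 was lost with library size as the only scaling (adjusted p = 0.0579), which shifted the median of all genes upwards by 0.11 on the log2 scale, and that against day 3 without any single library of day 3 or day 6 (up to 0.122). OTX1, its paralogue, had 47.01, 47.1 and 42.5 CPM on day 0, 42.7, 43.5 and 43.6 CPM on day 3 and 25.2, 24.4 and 28.3 CPM on day 6. It did not pass on day 3 (adjusted p = 0.487) and fell by day 6, with a log2 fold change of -0.81 (SE 0.08, adjusted p = 2.69e-06) against day 0 and -0.74 (SE 0.08, adjusted p = 3.05e-05) against day 3. Its log2 fold change on day 6 against day 0 was the lowest of the 53 genes. EMX2, a patterning gene of cortex and urogenital tract, had 44.3, 55.2 and 49.8 CPM on day 0, 59.7, 55.3 and 60.4 CPM on day 3 and 50.8, 48.9 and 51.5 CPM on day 6. EMX1 had 7.51, 6.46 and 6.02 CPM on day 0, 9.69, 9.83 and 10.6 CPM on day 3 and 8.77, 8.23 and 10.6 CPM on day 6. EMX1 was higher on both days, with log2 fold changes of 0.58 on day 3 and 0.46 on day 6. EMX2 passed on day 3 against day 0, by 0.23 (SE 0.09, adjusted p = 0.0477), a call lost in 14 of 18 alternatives (up to 0.194), among them without D0_1, D0_3 or any library of day 3 or day 6. Without D0_2 or with only these 2 days in the fit it was called lower on day 6 than on day 3 (down to 0.0118).

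PITX1, a hindlimb and pituitary factor, had 119, 100.3 and 109 CPM on day 0, 122, 132 and 135 CPM on day 3 and 97.6, 82.8 and 103 CPM on day 6. It was lower on day 6 than on day 3, with a log2 fold change of -0.46 (SE 0.10, adjusted p = 0.00439), and passed in neither comparison with day 0 (adjusted p = 0.0533 on day 3 and 0.0809 on day 6). It was called higher on day 3 than on day 0 in 5 alternatives (down to 0.0211), among them without D0_1 or D6_2, and lower on day 6 than on day 0 without D0_2 or D6_3 (down to 0.00797). PITX3, a factor of lens and dopaminergic neurons, averaged 0.183 ± 0.0374 CPM on day 0, 0.513 ± 0.123 on day 3 and 0.596 ± 0.119 on day 6 and was higher on day 3 (adjusted p = 0.0106) and day 6 (adjusted p = 0.00282) than on day 0. Without D3_2 its day 3 call was lost (adjusted p = 0.0517).

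LIM homeobox factors combine the homeodomain with protein-binding LIM domains. Of the 8 LHX genes 5 were tested, and all 5 were above day 0 at both later times. Of all genes tested 22.5% were higher on day 3 and 28.9% on day 6. LHX1, LHX2 and LHX9 would not have passed the filter on low counts on their day 0 libraries alone, which favours such calls. LHX1, a kidney and head organiser gene (chromosome 17), had 0.196, 0.255 and 0 CPM on day 0, 1.49, 2.11 and 1.39 CPM on day 3 and 6.25, 7.06 and 8.65 CPM on day 6. It was near the counting floor on day 0 and its 3 days did not overlap, with pooled counts 10.6-fold (95% interval 5.9 to 21.1) the day 0 level on day 3 and 45.5-fold (95% interval 25.8 to 88.5) on day 6. It rose again between day 3 and day 6, by 2.12 (SE 0.27, adjusted p = 8.81e-05). LHX2, an eye, forebrain and hair follicle gene, had 0.229, 0.468 and 0.188 CPM on day 0, 0.969, 1.3 and 1 CPM on day 3 and 2.15, 1.94 and 3.23 CPM on day 6. Its levels also stepped up at both times, by 1.89 (SE 0.37, adjusted p = 0.00136) and then 1.15 (SE 0.29, adjusted p = 0.013), the second call being lost without D3_1, D3_3 or D6_3 (up to 0.0883).

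LHX6, an interneuron gene, had 3.72, 3.95 and 4.65 CPM on day 0, 6.78, 6.25 and 6.95 CPM on day 3 and 8.81, 8.49 and 7.49 CPM on day 6. LHX4, a pituitary and motor neuron gene, had 23.96, 25.7 and 27.9 CPM on day 0, 33.6, 35.6 and 37.5 CPM on day 3 and 29.7, 29.1 and 31.9 CPM on day 6. Their log2 fold changes on day 6 were 1.02 (SE 0.13, adjusted p = 1.86e-05) for LHX6 and 0.23 (SE 0.09, adjusted p = 0.037) for LHX4. LHX9, a gonad gene, had 18 counts on day 0, 84 on day 3 and 46 on day 6 and its day 6 libraries overlapped with day 0, although it was called (adjusted p = 0.0277). That call was lost without D0_1, D0_3, D6_2 or D6_3 (up to 0.12). Without D0_2 the log2 fold change was 1.95 in place of 1.33 on day 6 and 2.71 in place of 2.09 on day 3. LHX4 lost its day 6 call in 8 of 18 alternatives (up to 0.155), among them without D0_1, D6_1, D6_3 or any library of day 3. Without D0_2 or with only these 2 days in the fit LHX4 was called lower (down to 0.015) and LHX6 higher (down to 0.034) on day 6 than on day 3. LMX1B, which sets the dorsal limb, had 1, 1 and 1 counts in the day 0 libraries, 7, 4 and 9 in the day 3 libraries and 31, 13 and 16 in the day 6 libraries. It was 19.8-fold (95% interval 6.46 to 98.7) higher on day 6 than on day 0. Its step between day 3 and day 6 was called (adjusted p = 0.0169) but lost without D3_1, D3_2 or D6_1 (up to 0.11). Another 4 were too low to test. LHX5 had 1 count on day 0, 14 on day 3 and 21 on day 6, and LHX3 had 3 counts on day 0, 1 on day 3 and 6 on day 6. LHX8 had 0 counts on day 0, 1 on day 3 and 0 on day 6, and LMX1A had 0 counts on day 0, 2 on day 3 and 7 on day 6. In pooled counts LHX5 was 20.8-fold (95% interval 3.34 to 859.8) its day 0 level on day 6.

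The engrailed genes, which pattern midbrain and hindbrain, both rose at both steps. EN1 (chromosome 2) had 0.0653, 0.085 and 0 CPM on day 0, 0.298, 0.201 and 0.391 CPM on day 3 and 1.85, 2.11 and 1.33 CPM on day 6. It was 5.44-fold (95% interval 1.86 to 21.6) the day 0 level on day 3 and 33.4-fold (95% interval 12.8 to 124) on day 6, and most of the gain came after day 3, by 2.58 (SE 0.37, adjusted p = 0.000242). EN2 (chromosome 7) had 5.62, 5.99 and 6.86 CPM on day 0, 11.6, 10.6 and 8.3 CPM on day 3 and 14.9, 12.2 and 14.2 CPM on day 6. No day 0 library reached the lowest later one, and the log2 fold change was 0.73 (SE 0.14, adjusted p = 0.00117) on day 3 and 1.17 (SE 0.14, adjusted p = 1.11e-05) on day 6. Its call between day 3 and day 6 was lost in 5 alternatives (up to 0.18), among them without D3_2, D3_3, D6_1 or D6_3. GBX2, which meets OTX2 at the midbrain and hindbrain boundary, had 2.15, 2.59 and 1.64 CPM on day 0, 3.35, 3.11 and 3.52 CPM on day 3 and 3.5, 3.14 and 3.49 CPM on day 6. It was higher on day 6 by 0.66 (SE 0.18, adjusted p = 0.007), and on day 3 except without D3_3 (adjusted p = 0.0519). GBX1 had 0 counts on day 0, 5 on day 3 and 27 on day 6. With the floor it stood at least 8.91-fold higher on day 6.

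BARX1, which patterns stomach mesenchyme and teeth, had 3.3, 4.55 and 4.46 CPM on day 0, 8.79, 10.7 and 9.3 CPM on day 3 and 14.99, 15.1 and 18.2 CPM on day 6. It rose at both steps without overlap, to a log2 fold change of 1.98 (SE 0.14, adjusted p = 9.89e-08). BARX2, an epithelial and muscle gene of the same family, had 40.02, 48.7 and 40.4 CPM on day 0, 45.6, 48 and 45.4 CPM on day 3 and 65.6, 66.5 and 72.96 CPM on day 6. It did not pass on day 3 (adjusted p = 0.369) and rose by day 6, by 0.67 (SE 0.09, adjusted p = 3.36e-05) against day 0 and 0.56 (SE 0.09, adjusted p = 0.000577) against day 3. Without D0_2 it passed on day 3 as well (adjusted p = 0.0231). MSX1, a BMP-responsive gene of teeth and palate, had 9.37, 9.44 and 9.49 CPM on day 0, 11.9, 12.7 and 14.1 CPM on day 3 and 15.2, 11.5 and 12.4 CPM on day 6. It was higher on both days, with log2 fold changes of 0.45 on day 3 and 0.47 on day 6. Its paralogue MSX2 had 0 counts on day 0, 10 on day 3 and 23 on day 6, which puts it at least 3.15-fold higher on day 3 and at least 7.59-fold higher on day 6. MNX1, a motor neuron and pancreas gene, had 14.9, 14.03 and 15.8 CPM on day 0, 17.4, 17.1 and 18.3 CPM on day 3 and 16.4, 19.7 and 18.4 CPM on day 6. It was called on day 6 against day 0, by 0.29 (SE 0.09, adjusted p = 0.0203), but not in 4 alternatives (up to 0.0796), among them without D6_2 or D6_3. On day 3 it was called in 2 alternatives (down to 0.0284).

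TLX1, a spleen gene and T-cell leukaemia oncogene, had no day 0 count, 4, 5 and 3 counts in the day 3 libraries and 20, 14 and 18 in the day 6 libraries. It was at least 3.78-fold higher on day 3 and at least 17.2-fold higher on day 6 (adjusted p = 1.39e-05). TLX1 and PAX2, within 500 kb of each other on chromosome 10, thus shared a day 0 level of 0. TLX2, an enteric neuron gene, had 3.62, 2.85 and 3.76 CPM on day 0, 3.35, 3.78 and 3.999 CPM on day 3 and 3.97, 3.75 and 3.83 CPM on day 6. It passed in no comparison. TLX3 had 0 counts on day 0, 1 on day 3 and 3 on day 6. ALX1, a gene of the face, had 2.45, 3.15 and 2.16 CPM on day 0, 2.53, 2.61 and 2.61 CPM on day 3 and 3.87, 3.4 and 2.63 CPM on day 6. VAX2, a gene of the ventral eye, had 3.13, 2.42 and 3.05 CPM on day 0, 3.8, 2.84 and 2.999 CPM on day 3 and 3.43, 2.24 and 1.98 CPM on day 6. These and VAX1, with 41 counts on day 0, 55 on day 3 and 58 on day 6, passed in no comparison, with adjusted p between 0.133 and 0.996, except that without D0_2 or with library size as the only scaling ALX1 was called higher on day 6 than on day 0 (down to 0.0326). MEOX1 had 1 count on day 0, 1 on day 3 and 7 on day 6, and GSX2 had 0 counts on day 0, 0 on day 3 and 1 on day 6.

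Of the 14 NKX genes 8 were tested and 6 exceeded day 0 at both later times. Of all genes tested 22.5% were higher on day 3 and 28.9% on day 6. NKX1-2, NKX2-3, NKX3-2 and NKX6-1 would not have passed the filter on low counts on their day 0 libraries alone, which favours such calls. NKX3-2, a cartilage and foregut mesenchyme gene (chromosome 4, minus strand), had 0.0653, 0.085 and 0.094 CPM on day 0, 1.23, 1.14 and 1.43 CPM on day 3 and 1.71, 2.15 and 1.68 CPM on day 6. It was 15.8-fold (95% interval 6.99 to 43.99) the day 0 level on day 3 and 23.1-fold (95% interval 10.4 to 64.02) on day 6, and its level between day 3 and day 6 did not pass (adjusted p = 0.128). NKX6-1, a beta-cell factor, had 0.751, 0.893 and 0.329 CPM on day 0, 1.64, 2.61 and 2 CPM on day 3 and 2.05, 2.28 and 1.81 CPM on day 6. The groups of later days gave a log2 fold change of 1.64 (SE 0.31, adjusted p = 0.00101) on day 3 and 1.61 (SE 0.31, adjusted p = 0.000606) on day 6.

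NKX2-2, an islet and ventral neural tube factor, had 2.19, 2.64 and 2.4 CPM on day 0, 3.58, 3.34 and 3.999 CPM on day 3 and 4.94, 3.7 and 5.68 CPM on day 6. All later libraries exceeded those of day 0, by 0.60 (SE 0.18, adjusted p = 0.0187) on day 3, lost without D0_1 or D3_3 (up to 0.0794), and by 0.99 (SE 0.18, adjusted p = 0.000391) on day 6. NKX1-2 had 2, 2 and 0 counts in the day 0 libraries, 5, 9 and 7 in the day 3 libraries and 39, 19 and 21 in the day 6 libraries. NKX2-3, a gut and spleen mesenchyme gene, had 13 counts on day 0, 65 on day 3 and 50 on day 6. On day 6 NKX1-2 was 19.6-fold (95% interval 7.34 to 73.5) and NKX2-3 3.81-fold (95% interval 2.04 to 7.64) the day 0 level. NKX1-2 lost its day 3 call without D3_2 (adjusted p = 0.0507). Without D0_3 the log2 fold change of NKX2-3 was 2.83 in place of 2.19 on day 3 and 2.54 in place of 1.90 on day 6. NKX2-5, the cardiac factor, had 7.61, 6.67 and 7.28 CPM on day 0, 8.23, 6.79 and 7.82 CPM on day 3 and 6.62, 6.59 and 7.1 CPM on day 6. NKX6-3, a stomach factor, had 18.9, 12.2 and 20.5 CPM on day 0, 16.5, 19.1 and 17.04 CPM on day 3 and 17.2, 15.5 and 16.3 CPM on day 6. Neither passed in any comparison, with adjusted p between 0.381 and 0.893, except that without D0_2 NKX6-3 was called lower on day 6 than on day 0 (adjusted p = 0.0136).

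PAX9 has NKX2-1 and NKX2-8 as neighbours on chromosome 14, between 36516392 and 36679715. NKX2-1 (thyroid transcription factor 1) had 0, 0 and 0 counts in the day 0 libraries, 2, 3 and 1 in the day 3 libraries and 11, 13 and 2 in the day 6 libraries. With a floor of 3 counts it was at least 8.58-fold higher on day 6, and NKX2-8, with 0 counts on day 0, 2 on day 3 and 11 on day 6, at least 3.63-fold higher. Both were below the filter of the test. All 3 genes of this stretch were thus lowest on day 0 and highest on day 6. On chromosome 20 NKX2-2 stands between NKX2-4, with no count, and PAX1, with 1 count on day 0, 3 on day 3 and 5 on day 6.

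The Iroquois genes (IRX), which pattern heart, limb and neural tube, differed within the family. IRX4, a ventricular gene (chromosome 5), had 0, 0.0425 and 0.094 CPM on day 0, 0.41, 0.635 and 0.782 CPM on day 3 and 1.31, 1.38 and 1.21 CPM on day 6. Its pooled counts were 15.1-fold (95% interval 4.88 to 75.97) the day 0 level on day 3 and 32.7-fold (95% interval 10.9 to 161) on day 6. Its fitted log2 change on day 6 was 4.86, against 4.17 without D0_1 and 5.80 without D0_3. On day 3 it was 3.76, against 3.08 without D0_1 and 4.71 without D0_3. Its call between day 3 and day 6 was lost in 9 alternatives (up to 0.186), among them without any single library of day 3 or day 6. IRX2, on the same chromosome, had 11.4, 13.1 and 11.2 CPM on day 0, 12.6, 13.9 and 13.3 CPM on day 3 and 16.9, 13.4 and 14.9 CPM on day 6. It was higher on day 6 by 0.34 (SE 0.11, adjusted p = 0.0173) except without D0_1, D0_3 or D6_1 (up to 0.12). IRX1 had 0 counts on day 0, 1 on day 3 and 4 on day 6. On chromosome 16, IRX5 had 0.522, 0.468 and 0.658 CPM on day 0, 1.34, 0.937 and 1.78 CPM on day 3 and 2.72, 2.2 and 2.5 CPM on day 6. It rose at both steps without overlap, but the call between day 3 and day 6 was lost without D3_1, D3_2, D6_1 or D6_3 (up to 0.132). IRX6, within 500 kb, had 50.01, 45.4 and 48.8 CPM on day 0, 39.6, 39.03 and 36.5 CPM on day 3 and 40.1, 36.6 and 39.3 CPM on day 6. All its day 3 and day 6 libraries were below day 0, with log2 fold changes of -0.32 (SE 0.08, adjusted p = 0.00483) on day 3 and -0.31 (SE 0.08, adjusted p = 0.00384) on day 6. The day 6 call was lost with library size as the only scaling (adjusted p = 0.0621). IRX3 had 0 counts on day 0, 1 on day 3 and 2 on day 6.

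Across the 53 tested genes 18 were called higher in all 3 comparisons and 15 were higher on both days against day 0 without a call between day 3 and day 6. Another 3 (DLX1, DLX2 and EMX2) were called on day 3 only, 4 (BARX2, IRX2, MNX1 and PAX2) rose on day 6 without a call on day 3, and 8 were called nowhere. OTX1 and OTX2 fell on day 6 in both comparisons, SIX2 on day 6 against day 0, IRX6 on both days, and PITX1 between day 3 and day 6. These patterns were not counted over all genes tested, so whether any is more common here cannot be read. The filter on low counts also favours patterns that are higher against day 0. All 37 genes called on day 3, 40 of the 41 called on day 6 against day 0 and all 23 called between day 3 and day 6 had libraries that did not overlap between the days compared. LHX9 was the exception. A call itself selects for such separation. Of the 53 tested genes, called or not, 38 lay above and 1 below without overlap on day 3 against day 0. On day 6 the numbers were 38 and 4 against day 0, and 24 and 10 against day 3. For all genes tested 28.8% lay above and 25% below on day 3 against day 0, and 31.2% and 27.5% on day 6 against day 0. On day 6 against day 3 they were 22.8% and 20.7%, so that the share of the 53 below was near that of all genes.

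The share of genes called depended on their level, and so it was set beside all genes of like level, in strata of mean CPM over the 9 libraries. Of the 11 tested genes under 1 CPM, 10 were higher and none lower on day 6 against day 0, where 41.4% of all 2010 genes of that level were higher and 1.94% lower. Apart from VAX1, which was not called, these 11 genes passed the filter on low counts only through their day 3 or day 6 libraries. The filter therefore favours calls of higher against day 0 and a high median in this stratum, which are no support for a rise. All genes of that level went through the same filter. At 1 to 5 CPM 10 of 15 were higher, against 49% of all, and at 5 to 20 CPM 14 of 17, against 39.3%. In the stratum of 1 to 5 CPM, DLX3, LHX1, LHX2, NKX3-2, NKX6-1 and PAX9 would not have passed the filter on their day 0 libraries alone. The shares higher against day 0 and the median of that stratum are therefore no support for a rise either. At 20 CPM or more 3 of 10 were higher and 4 lower, against 16.3% and 40.9% of all genes. On day 3 the numbers higher were 9 of 11, 11 of 15, 13 of 17 and 3 of 10, where 22.9%, 37.8%, 32.8% and 14.2% of all genes in these strata were higher. Between day 3 and day 6 they were 7, 6, 6 and 1, against 22.2%, 25.3%, 14.6% and 4.06%. Genes called lower lay only in the stratum of 20 CPM or more in each comparison. There 1 of 10 was lower on day 3 against day 0, where 29.1% of all genes were. On day 6 against day 3, 3 of 10 were lower, where 6.45% of all genes were. The median log2 fold change on day 6 against day 0 was 4.15, 1.61, 0.53 and -0.16 for the homeobox and PAX genes from the lowest stratum to the highest, and 0.70, 0.57, 0.15 and -0.16 for all genes. The strata were chosen after the values were seen.

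**Figure D4:**
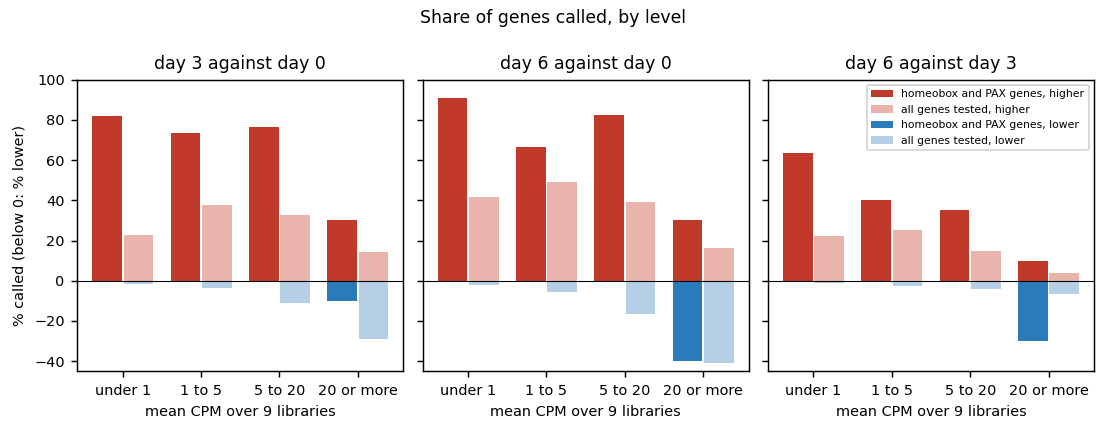
Percent of genes called higher (above 0) and lower (below 0) in 4 strata of mean CPM, with the homeobox and PAX genes left of all genes tested, for each of the 3 comparisons. Dark red bars stand above pale red bars in each stratum, and dark blue bars appear only at 20 CPM or more, where on day 6 against day 0 they stand at 4 of 10, near the 40.9% of all genes.

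Over 18 alternatives of scaling, filter, test and libraries, 30 of the 37 day 3 calls, 33 of the 41 day 6 calls against day 0 and 14 of the 23 calls between day 3 and day 6 held in every alternative that could test the gene. Between day 3 and day 6, 8 of 54 were lower without D0_2 (14.8%, against 13.9% of all genes), and 13 of 54 were higher without D3_2 (24.1%, against 8.32% of all genes).

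The TALE proteins (PBX, MEIS, PKNOX and TGIF) bind DNA together with other homeodomain factors, and the lists that follow were drawn up by function. Against day 0, 22.5% of all genes tested were higher and 18.2% lower on day 3, and 28.9% and 25.7% on day 6. The lists were not tested as sets against these shares. Among their genes near silence on day 0, the filter on low counts favours calls of higher too. Of 11 TALE genes 1 was higher and 1 lower on day 3, and 4 were higher and 1 lower on day 6, with a median log2 fold change of 0.12, where that of all genes was 0.01. MEIS3 averaged 0.0984 ± 0.0593 CPM on day 0, 1.3 ± 0.301 on day 3 and 4.5 ± 0.359 on day 6. PKNOX2 averaged 0.0844 ± 0.0954 CPM on day 0, 0.176 ± 0.107 on day 3 and 0.509 ± 0.069 on day 6. PBX2 averaged 77.9 ± 2.63 CPM on day 0, 81.6 ± 1.3 on day 3 and 96.01 ± 2.7 on day 6, and all 3 rose by day 6. PBX3 averaged 43.9 ± 2.51 CPM on day 0, 41.9 ± 1.23 on day 3 and 32.1 ± 1.81 on day 6 and fell. The EYA and DACH proteins are cofactors in the same networks, EYA1 with SIX2 and PAX2 in the kidney. Of 5 tested genes 2 rose and 3 fell on day 6, with a median of -0.38. EYA2 averaged 0.0908 ± 0.0407 CPM on day 0, 0.479 ± 0.154 on day 3 and 2.98 ± 0.397 on day 6 and rose by 4.93 (SE 0.37, adjusted p = 1.36e-07), while EYA1, EYA3 and DACH2 fell. EYA1 averaged 41.9 ± 3.09 CPM on day 0, 37.7 ± 1.06 on day 3 and 30.7 ± 0.513 on day 6. DACH2 averaged 7.53 ± 1.99 CPM on day 0, 6.82 ± 0.131 on day 3 and 3.86 ± 0.474 on day 6.

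TLE co-repressors bind PAX, NKX and engrailed proteins, and LMO and LDB proteins bind LIM factors. Of 10 tested, 7 were higher and 1 lower on day 6, with a median of 0.39. TLE4 averaged 1.06 ± 0.135 CPM on day 0, 2.03 ± 0.4 on day 3 and 5.18 ± 0.413 on day 6. TLE2 averaged 20.2 ± 0.525 CPM on day 0, 34.6 ± 1.23 on day 3 and 38.2 ± 2.89 on day 6. LMO2 averaged 4.25 ± 1.03 CPM on day 0, 10.6 ± 1.02 on day 3 and 12.3 ± 0.762 on day 6, and all 3 were higher. LMO3 averaged 202 ± 32.6 CPM on day 0, 183 ± 3.49 on day 3 and 118 ± 6.7 on day 6 and fell on day 6. Of 70 other homeobox genes outside HOX, 38 were tested, with 20 higher and 3 lower on day 3 and 21 higher and 7 lower on day 6. Their median log2 fold change was 0.36 on day 3 and 0.53 on day 6. POU3F3 had 3 counts on day 0, 55 on day 3 and 185 on day 6. CUX2 had 0 counts on day 0, 15 on day 3 and 101 on day 6. HMX2 averaged 3.28 ± 0.319 CPM on day 0, 5.33 ± 0.367 on day 3 and 7.47 ± 0.694 on day 6. PRRX1 averaged 0.579 ± 0.105 CPM on day 0, 0.835 ± 0.131 on day 3 and 2.44 ± 0.264 on day 6. All 4 were higher on day 6.

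Secreted BMP, WNT, SHH and FGF signals induce many such genes in embryos. Of 11 patterning signals 4 were tested, and 3 were higher on day 3 and all 4 on day 6. With at most 8 counts over the day 0 libraries, all 4 passed the filter on low counts only through later days. That all 4 were higher is therefore no support for a rise of the list. BMP2 had 4 counts on day 0, 22 on day 3 and 129 on day 6. BMP4 had 0 counts on day 0, 18 on day 3 and 73 on day 6. WNT1 had 6 counts on day 0, 64 on day 3 and 61 on day 6, and BMP7 had 8 counts on day 0, 7 on day 3 and 106 on day 6. Of 12 PRC2 subunits and partners 3 rose and 7 fell on day 6, with a median of -0.37. AEBP2 averaged 192 ± 10.6 CPM on day 0, 148 ± 2.86 on day 3 and 118 ± 8.85 on day 6 and fell. SUZ12 averaged 173 ± 17.6 CPM on day 0, 131 ± 1.12 on day 3 and 116 ± 6.99 on day 6 and fell. PHF1 averaged 11.5 ± 0.803 CPM on day 0, 16.1 ± 1.85 on day 3 and 18.95 ± 0.912 on day 6 and rose. EZHIP, an inhibitor of PRC2, averaged 0.124 ± 0.0561 CPM on day 0, 1.6 ± 0.143 on day 3 and 4.28 ± 0.0973 on day 6 and rose. Transcript levels do not measure the activity of the enzyme.

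Markers of other cell types were read beside these results. Of 8 fibroblast markers 4 were tested and 3 were higher on day 6 (COL1A1, PDGFRA and PDGFRB), with summed levels of 55.3 to 60.1 CPM on day 0, 78 to 83.7 on day 3 and 73.7 to 80.8 on day 6. POSTN and LUM had no count on day 0 and day 3. Of 9 squamous markers 5 were tested and all 5 were higher on day 6, with sums of 26.3 to 28.6 CPM on day 0, 35.8 to 41.1 on day 3 and 49.4 to 58.6 on day 6. KRT4 and KRT5 were lower on day 3 than on day 0 and higher on day 6. Neuroendocrine markers summed to 599 to 693 CPM on day 0, 698 to 712 on day 3 and 731 to 790.4 on day 6. Of 8 tested 3 were higher and 1 was lower on day 6. Leukocyte markers summed to 489 to 644 CPM on day 0, 346 to 363 on day 3 and 327 to 330.3 on day 6. LYZ made up nearly all of it, with 543 ± 82.2 CPM on day 0, 349 ± 8.52 on day 3 and 323 ± 2.52 on day 6, and fell, while PTPRC stayed at or below 0.638 CPM in every library. Endothelial markers summed to at most 2.24 CPM in any library, with VWF the 1 of 2 tested that rose. CDH5 had 1 count on day 0, 1 on day 3 and 0 on day 6, and KDR had 1 count on day 0, 1 on day 3 and 1 on day 6. The part of any other cell type in the results was not tested. In bulk RNA more cells with a transcript and more transcript per cell cannot be told apart.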

How the data were processed

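RNA of 9 libraries (poly-A selected from total RNA, TruSeq chemistry, per the labels' protocols) was analysed. The authors deposited estimated counts per gene symbol; bcl2fastq 2.19, kallisto 0.44.0 and DESeq2 appear in the submitters' processing notes, which also list the builds GRCh38, GRCm38 and hg38 without a role, and how transcripts were summed to genes is not given in the sources used here. The estimated counts were whole numbers as deposited. In R 4.3.3, edgeR 4.0.16 scaled the libraries by TMM, kept 15345 genes (filterByExpr, minimum count 10) and tested each pair of days by its quasi-likelihood test in 1 fit of all 9 libraries, with Benjamini-Hochberg adjustment over all genes tested and a threshold of 0.05. The fit was tested on simulated data.

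Pooled ratios are sums of counts over a day's libraries, scaled by library size, with exact 95% intervals. Genes at 0 on day 0 were compared with a group floor of 3 counts. Estimated counts without molecular identifiers are not independent molecules. Coordinates and exon lengths come from GENCODE release 29 (GRCh38), and promoters from RefSeq. Genes with values per library had a mean of at least 1 CPM or were among the 8 called members with the largest change in a comparison; other tested members have a fold change or counts, and up to 4 genes of other lists with the lowest p on day 6 are named. The members and gene lists were chosen with earlier results of these data known, and some genes matching these names or lists are not reported individually here. Replicate numbers were not taken to pair the libraries. Alternatives were other scalings, filters, tests (DESeq2 1.42.0 and limma 3.58.1), samples in the fit, a replicate block and each library left out.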

Additional observations from a re-analysis of the deposited data

How the results depend on the processing

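No result reversed direction. With library size as the only scaling, 1842 genes in all were lower on day 3 than on day 0 (2791 with TMM) and 2 of the homeobox and PAX genes were lower on day 6 than on day 0 (4 with TMM); the median of all genes moved by 0.11 on day 6 against day 0, and the share of calls that were higher was 69% on day 3 (55.3% with TMM) and 66.6% on day 6 (52.9% with TMM). With a mean of at least 1 CPM, which left 42 of these genes, 13 were higher on day 6 than on day 3 (20 without that filter). With only the 2 days compared in the fit, 8 were lower on day 6 than on day 3 (3 with all libraries), as were 1922 genes in all (723 with all libraries). The cause was not tested.

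With each library left out in turn, 31 to 36 were higher on day 3 than on day 0, 32 to 38 higher and 4 to 6 lower on day 6 than on day 0, and 13 to 21 higher and 2 to 8 lower on day 6 than on day 3. In all genes, 356 (without D3_2) to 2165 (without D0_2) were lower on day 6 than on day 3. Same-numbered libraries deviated together with correlations of -0.150 to 0.124, so the numbers were not taken as pairs. With a replicate block 35 were higher and 1 lower on day 3, 37 higher and 4 lower on day 6, and 17 higher on day 6 than on day 3. The 20 genes counted but not tested had too few counts for the filter at the depth of these libraries.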
